A study of Homo sapiens with 6 samples.

Results

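The keratin genes described here are 10 genes of the count table, chosen by their symbols: the type II genes KRT5, KRT7, KRT8, KRT80 and KRT81 and the type I genes KRT10, KRT17, KRT18, KRT19 and KRT23. They are 10 of 34811 genes in the table, and 9 of them were among the 17309 genes with enough counts to be tested. Expression was measured by RNA-seq in OVCAR-3 cells, a long-established line from a human ovarian carcinoma. OV3/SCR cells carried a scrambled shRNA with wild-type COX-1 status (clone #1), and OV3/COX1KD cells carried an shRNA against COX-1 (clone #2). Both were made with a pRS shRNA plasmid, selected with puromycin and grown in serum-containing RPMI medium, and each was harvested as 3 independent cell populations. Because each condition was 1 clone, the difference between clones and the effect of the knockdown cannot be told apart, and the p-values measure the spread between passages of a clone.

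Keratins are the intermediate filament proteins of epithelial cells. A filament is built from pairs of a type I (acidic) and a type II (neutral or basic) keratin, so that each epithelium is known by the pairs it makes. KRT8 and KRT18 are the pair of simple epithelia, usually together with KRT7 and KRT19, while KRT5 and KRT14 mark basal cells of stratified epithelia, KRT10 marks their upper layers, and KRT81 belongs to hair. In cancers of the ovary, as in other carcinomas, simple epithelial keratins serve pathologists as markers of epithelial origin.

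Library totals lay between 25291505 and 27391538 counts, and 3 counts, taken as the detection floor, corresponded to 0.113 to 0.120 CPM (the counts of a gene relative to the library's total, adjusted by edgeR's TMM factors), which covers counting error only. The gene for COX-1, PTGS1 (ENSG00000095303), was at 26.7, 25.3 and 24.8 CPM in OV3/SCR replicates 1, 2 and 3 and at 18.1, 19.4 and 18.8 CPM in OV3/COX1KD, and its remaining level was 73.3% of the control (log2 fold change −0.45, standard error (SE) 0.057, edgeR FDR = 1.34e-06). The 6 ovarian carcinoma markers examined (PAX8, WT1, MUC16, EPCAM, CDH1 and MUC1) were detected in every library, with a summed level of 1687 to 1726 CPM in OV3/SCR and 1986 to 2067 CPM in OV3/COX1KD. Of these markers 4 were higher and 2 were lower in OV3/COX1KD, among them MUC16, which rose from 212 to 543 CPM (log2 fold change 1.36, edgeR FDR = 4.43e-16), and PAX8, which fell from 756 to 447 CPM (log2 fold change −0.76, edgeR FDR = 4.29e-13). The summed leukocyte markers stayed below 1.46 CPM, the 3 endothelial markers found in the table below 3.57 CPM, and the fibroblast markers lay between 10.3 and 11.1 CPM in OV3/SCR and between 6.08 and 7.18 CPM in OV3/COX1KD, nearly all of it COL1A1, while LUM had at most 1 count. OV3/COX1KD replicate 2 stood somewhat apart: its chi-square per degree of freedom was 4.44 and 5.74 against the other libraries of its condition, which differed from each other by 1.81. Without that library the same number of keratin members, 8, passed the test.

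Of the 9 keratin genes tested, 3 were higher in OV3/COX1KD cells (KRT8, KRT18 and KRT19), 5 were lower (KRT7, KRT10, KRT23, KRT80 and KRT81), and KRT5 did not pass the threshold of an FDR under 0.01 (quasi-likelihood test of edgeR, adjusted by Benjamini-Hochberg over every gene tested). The KRT8/KRT18 pair of simple epithelia rose by 1.57-fold and 1.69-fold, and KRT80 and KRT81 fell by 2.29-fold and 3.81-fold. KRT81 was the only member past a fold change of 2.5 at this FDR. Over all genes tested, 47.9% were called in either direction, 25.8% as higher and 22.1% as lower, and 3.92% were also past a fold change of 2.5. This balance over all genes depended on the scaling, with 4473 higher and 3820 lower after TMM but 3466 higher and 4978 lower with total count scaling, whereas the keratin members were 3 higher and 5 lower with both. Among genes whose mean log2 CPM was 5 or more, the abundance of most members, 67.1% were called. Being called was thus common, and the keratin genes are described below by direction and size. The median log2 fold change of the 9 members was −0.15, and that of all genes tested was −0.01.

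KRT8, the type II keratin of simple epithelia (ENSG00000170421, GRCh37 chromosome 12 from 53290971 to 53343738, minus strand), was the member with the most counts. Its level in OV3/SCR replicates 1, 2 and 3 was 1524, 1489 and 1492 CPM, and in OV3/COX1KD it was 2398, 2325 and 2357 CPM. All 3 knockdown libraries were above all 3 control libraries, as they were, in one direction or the other, for every member except KRT5, and 63.2% of all genes tested had groups that did not overlap. The mean rose from 1502 ± 19.6 to 2360 ± 36.5 CPM (SD, n = 3), a log2 fold change of 0.65 (SE 0.027, edgeR FDR = 7.12e-14). These are levels in RNA from whole cultures, in which more or fewer cells of a kind and more or less RNA per cell cannot be told apart.

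KRT18, the type I partner of KRT8 (ENSG00000111057, chromosome 12 from 53342655 to 53346690, plus strand), is the only type I gene located in the type II cluster. Its level was 455, 462 and 461 CPM in the 3 OV3/SCR libraries and 786, 797 and 743 CPM in the 3 OV3/COX1KD libraries, with no overlap. This was the largest rise among the members, with a log2 fold change of 0.76 (SE 0.030, edgeR FDR = 6.08e-14). The ends of KRT8 and KRT18 overlap on opposite strands over 525 exon bases in GENCODE 44 lifted to GRCh37, which is 17.1% of the exon length of KRT18 and 7.63% of that of KRT8. Whether the counting used strand is not given in the sources used here, and reads from this stretch may not be separable between the pair.

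KRT19, the shortest keratin of simple epithelia, which lacks the tail of other keratins (ENSG00000171345, chromosome 17 from 39679869 to 39684560, minus strand), was at 966, 904 and 954 CPM in OV3/SCR and at 1190, 1166 and 1174 CPM in OV3/COX1KD. The knockdown libraries again lay above the controls. The rise was smaller than that of the KRT8/KRT18 pair, from 941 ± 33.2 to 1177 ± 12.3 CPM (SD, n = 3), a log2 fold change of 0.32 (SE 0.030, edgeR FDR = 1.41e-08).

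KRT7, a type II keratin of glandular and ductal epithelia (ENSG00000135480, chromosome 12 from 52626304 to 52645970, plus strand), went the other way. Its level was 1048, 1034 and 1040 CPM in OV3/SCR and 948, 944 and 935 CPM in OV3/COX1KD. The groups did not overlap, but the difference was small, 90.6% of the control level remaining (log2 fold change −0.14, SE 0.026, edgeR FDR = 0.000102). It stayed lower in every alternative fit, with a log2 fold change between −0.22 (total count scaling) and −0.12 (no filter on low counts). In GENCODE, an antisense gene, KRT7-AS, overlaps 282 bases of KRT7 exons.

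**Figure D1:**
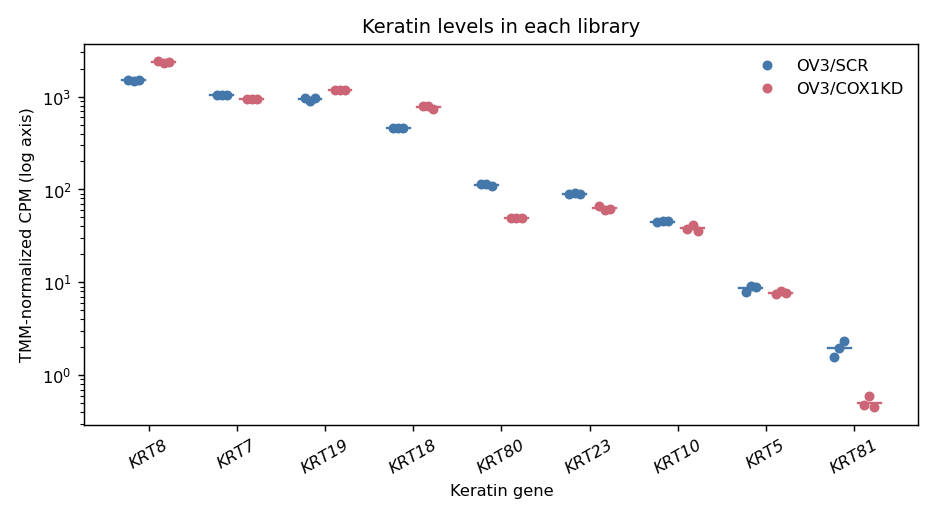
Level of 9 keratin genes in each of the 6 libraries, in TMM-normalized CPM on a log axis. Points are libraries (3 of OV3/SCR in blue, 3 of OV3/COX1KD in red) and lines are group means. KRT8, KRT18 and KRT19 lie higher in every OV3/COX1KD library, KRT7, KRT80, KRT23, KRT10 and KRT81 lie lower, and only for KRT5 do the groups overlap. KRT17, at 4 counts or fewer per library, is left out.

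KRT80, a type II keratin found in many epithelia (ENSG00000167767, chromosome 12 from 52562780 to 52585798, minus strand), had the largest fall of the members with more than 100 counts in every library. It was at 113, 115 and 110 CPM in OV3/SCR and at 49.8, 49.4 and 48.8 CPM in OV3/COX1KD. The values of each group lay close together and far from the other group. The mean fell from 113 ± 2.64 to 49.3 ± 0.478 CPM (SD, n = 3), to 43.7% of the control (log2 fold change −1.19, SE 0.036, edgeR FDR = 9.37e-16).

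KRT23, an acidic keratin of several glandular epithelia (ENSG00000108244, chromosome 17 from 39078952 to 39093898, minus strand), was at 89.0, 91.0 and 90.3 CPM in OV3/SCR and at 66.3, 60.0 and 61.4 CPM in OV3/COX1KD. Every knockdown library was below every control library. The log2 fold change was −0.53 (SE 0.040, edgeR FDR = 8.48e-10), with 69.4% of the control level remaining.

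KRT10, the type I keratin of the upper epidermis (ENSG00000186395, chromosome 17 from 38974369 to 38978866, minus strand), was present at 44.2, 45.5 and 45.4 CPM in OV3/SCR and at 37.6, 41.0 and 35.9 CPM in OV3/COX1KD. OV3/COX1KD replicate 2 came closest to the control range without entering it. The difference was a log2 fold change of −0.24 (SE 0.049, edgeR FDR = 0.000356).

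KRT5, the type II keratin of basal cells (ENSG00000186081, chromosome 12 from 52908359 to 52914314, minus strand), was low in both conditions. Its level was 7.80, 9.13 and 8.90 CPM in OV3/SCR and 7.55, 8.02 and 7.73 CPM in OV3/COX1KD. OV3/SCR replicate 1 lay inside the range of the knockdown libraries. The log2 fold change was −0.15 with a 95% interval from −0.34 to 0.04 (edgeR FDR = 0.168), and in none of the 14 fits run, the reported one included, did it pass the threshold.

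KRT81, a type II hair keratin (ENSG00000205426, chromosome 12 from 52679697 to 52685318, minus strand), was counted 42, 51 and 60 times in the OV3/SCR libraries and 12, 15 and 12 times in the OV3/COX1KD libraries. All counts were low and the groups were well apart. Its level of 1.95 ± 0.373 CPM (SD, n = 3) fell to 0.509 ± 0.079 CPM, a log2 fold change of −1.93 (SE 0.25, edgeR FDR = 1.84e-06). Of the 50-base words of its longest transcript, 44.6% also occur in transcripts of other genes, most of them in the hair keratin gene KRT86. The count table has no gene under the symbol KRT86 to compare with. The counts of KRT81 may therefore hold or lack reads of near-identical copies.

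KRT17, a type I keratin of skin appendages and of wounded or activated epidermis (ENSG00000128422, chromosome 17 from 39775694 to 39781094, minus strand), was at the edge of detection. It had 4, 3 and 4 counts in OV3/SCR and 0, 0 and 1 in OV3/COX1KD, too few for the abundance filter. The summed counts were 11 and 1, and their ratio after scaling was 10.8 with an exact 95% interval from 1.56 to 463 for counting error. Without the filter its edgeR FDR was 0.0426, which is above the threshold.

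**Figure D2:**
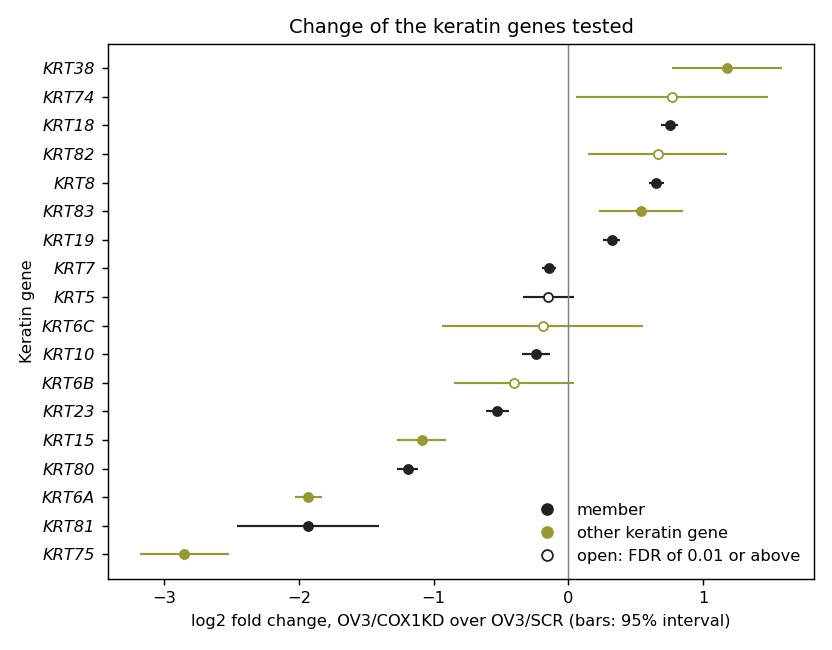
log2 fold change of OV3/COX1KD over OV3/SCR for the 9 members (black) and the 9 other keratin genes (olive) tested by edgeR. Bars are 95% intervals and open points have an FDR of 0.01 or above. KRT18, KRT8 and KRT19 lie to the right of 0 with narrow intervals, and KRT75, KRT81, KRT6A, KRT80 and KRT15 have the largest falls.

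Promoter sequences in the RefSeq table (GRCh38.p14) matched 3 of the 10 members, KRT5, KRT8 and KRT10. They are shown because no window was at hand for the other members. KRT8 was higher, KRT10 was lower and KRT5 was not called, and a link between sequence and response was not tested. Each is the 250 bases before the gene's RefSeq start, on the minus strand, at chr12:52520395-52520644 for KRT5, chr12:52926470-52926719 for KRT8 and chr17:40822615-40822864 for KRT10. Capitals mark matches to the motifs searched on both strands.
KRT5: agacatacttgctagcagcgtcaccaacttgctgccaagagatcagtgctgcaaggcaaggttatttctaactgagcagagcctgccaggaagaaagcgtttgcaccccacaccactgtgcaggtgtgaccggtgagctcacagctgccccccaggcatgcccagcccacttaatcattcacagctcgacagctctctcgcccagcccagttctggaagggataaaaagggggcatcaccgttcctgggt
KRT8: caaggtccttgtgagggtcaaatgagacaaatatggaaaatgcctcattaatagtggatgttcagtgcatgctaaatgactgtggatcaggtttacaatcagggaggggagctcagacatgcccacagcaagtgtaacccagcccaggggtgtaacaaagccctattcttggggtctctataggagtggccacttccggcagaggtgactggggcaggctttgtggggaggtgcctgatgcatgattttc
KRT10: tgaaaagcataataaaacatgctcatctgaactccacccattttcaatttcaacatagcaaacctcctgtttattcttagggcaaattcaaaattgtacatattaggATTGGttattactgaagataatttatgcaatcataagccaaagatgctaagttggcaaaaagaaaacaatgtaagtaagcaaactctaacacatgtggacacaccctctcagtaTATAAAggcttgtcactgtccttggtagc
The motifs were the TATA box TATAAA, the Sp1 core GGGCGG, the AP-1 site TGANTCA and the CCAAT box CCAAT, held by 10.7%, 42.6%, 6.57% and 32.0% of the 35116 windows of the same length in the table. KRT10 had TATAAA beginning 29 bases before the start and a CCAAT box read on the other strand, ATTGG, 143 bases before it, and the KRT5 and KRT8 windows had no match. Each window occurs once in GRCh37. The KRT8 window lies inside the annotated KRT8 gene and the KRT5 window partly inside the annotated KRT5 gene, and the KRT10 window overlaps the gene TMEM99. In GRCh37 the KRT8 window spans 53320254 to 53320503, and the annotated KRT8 gene, on the minus strand, begins at 53343738. The KRT8 window thus precedes a start within the gene and not the outermost one. Counts per gene do not tell which start was used. A match of letters is a description and not a binding site.

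Levels can be compared between genes only per length. Per kilobase of annotated exon, the order in OV3/SCR was KRT19 (403 CPM per kilobase), KRT7 (260), KRT8 (218) and KRT18 (150), followed at a distance by KRT23 (31.0), KRT80 (25.9), KRT10 (20.8), KRT5 (2.08), KRT81 (1.01) and KRT17 (0.047). In OV3/COX1KD cells the order on the same scale was KRT19 (504), KRT8 (343), KRT18 (253), KRT7 (236), KRT23 (21.5), KRT10 (17.7), KRT80 (11.3), KRT5 (1.88), KRT81 (0.264) and KRT17. KRT7 was thus above KRT8 and KRT18 in the control clone and below both in the knockdown clone, and KRT80 and KRT10 changed places. No neighbours in either order had overlapping libraries. The order depended in part on the length used: per kilobase of the longest transcript, KRT7 (580) stayed above KRT18 (371) in OV3/COX1KD cells. The summed exon length and the longest transcript were 3999 and 1625 bases for KRT7, 6881 and 2862 bases for KRT8 and 3069 and 2088 bases for KRT18.

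The summed level of the 10 members was 4250, 4152 and 4205 CPM in the OV3/SCR libraries and 5484, 5392 and 5364 CPM in the OV3/COX1KD libraries. Keratin members made up 0.431 ± 0.0077% of all counts in OV3/SCR and 0.526 ± 0.0047% in OV3/COX1KD (SD, n = 3). The groups did not overlap on either scale. Of the level per kilobase of all 40 keratin genes, the 4 simple epithelial keratins KRT7, KRT8, KRT18 and KRT19 together held 86.9 ± 0.348% in OV3/SCR and 94.6 ± 0.0953% in OV3/COX1KD (SD, n = 3), and 91.6% and 96.7% when the longest transcript was used as length. Within the pool, KRT8 went from 18.4% to 24.3% and KRT18 from 12.6% to 17.9%. KRT7 went from 21.9% to 16.7%, KRT80 from 2.18% to 0.801% and KRT23 from 2.61% to 1.52%, and KRT6A, a keratin of wounded and activated epidermis that is no member, went from 5.32% to 1.17%. These single-gene shares are per kilobase of exon. With the longest transcript as length, KRT8 went from 23.3% to 30.4% and KRT18 from 9.78% to 13.7%. On that scale KRT7 went from 28.5% to 21.4%, KRT80 from 1.29% to 0.467%, KRT23 from 1.81% to 1.04% and KRT6A from 3.55% to 0.773%.

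**Figure D3:**
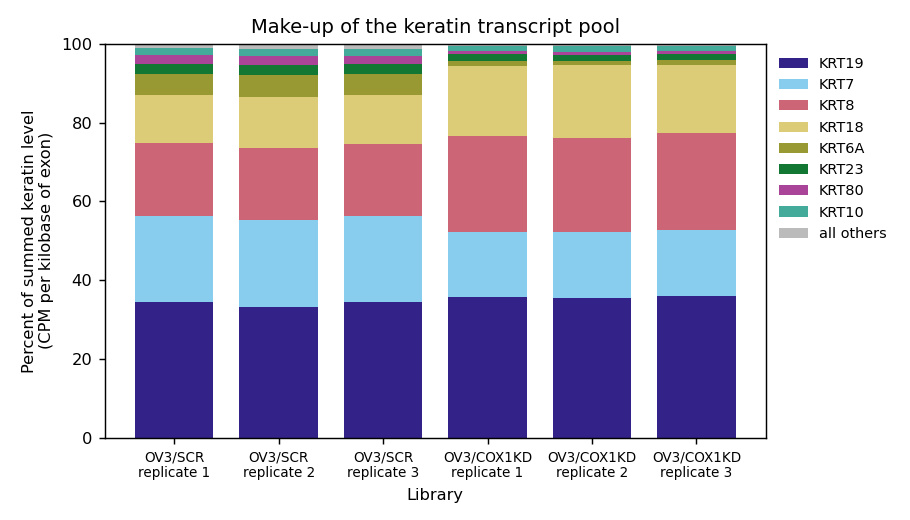
Share of each keratin gene in the summed level of all 40 keratin genes per kilobase of exon, in percent, for the 3 OV3/SCR and the 3 OV3/COX1KD libraries. KRT7, KRT8, KRT18 and KRT19 together fill about 86.9% of each control bar and 94.6% of each knockdown bar, with taller KRT8 and KRT18 segments and a shorter KRT6A segment in the knockdown clone.

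Because filaments need both types, the log2 ratio of the summed type II to the summed type I level per kilobase was taken in each library. Over the 5 type II and 5 type I members it was −0.26, −0.23 and −0.27 in OV3/SCR and −0.43, −0.44 and −0.41 in OV3/COX1KD, a difference of −0.17. The type I side was thus somewhat heavier in every knockdown library. The difference had the same sign with the longest transcript as length (−0.15), where the ratios themselves were above 0 (0.32 and 0.17), and over all 24 type II and 16 type I keratin genes (−0.31). This larger set includes the members, and its type II side also holds KRT6A, which went from 5.32% to 1.17% of the summed level. With 3 libraries against 3 an exact permutation test cannot give a two-sided p below 0.1, so these ratios are given as values.

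Ratios of counts within a library do not depend on scaling. The log2 ratio of KRT8 to KRT18 counts was 1.74, 1.69 and 1.69 in OV3/SCR and 1.61, 1.54 and 1.67 in OV3/COX1KD, a difference of −0.10 between the conditions. The ratio of KRT8 to KRT7, both of type II, moved more, from 0.53 to 1.32, and that of KRT18 to KRT19, both of type I, from −1.03 to −0.60. KRT7 to KRT19 went from 0.15 to −0.32. The 3 library values of each condition were apart from those of the other in all 4 ratios, with the smallest distance for KRT8 to KRT18.

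The table holds 30 other keratin genes, of which 9 were tested, 2 were higher, 3 were lower and 4 were not called, with a median log2 fold change of −0.19, and 11 were at 3 counts or fewer in all 6 libraries. Over all genes tested, 47.9% were called. KRT6A was the most abundant of the 30. It was at 188, 187 and 179 CPM in OV3/SCR and at 52.9, 43.9 and 48.5 CPM in OV3/COX1KD, a log2 fold change of −1.93 (SE 0.047, edgeR FDR = 4.26e-17), and 39.2% of its 50-base words are shared with other genes, chiefly KRT6C. KRT75, a keratin of the hair follicle, fell from 9.89 ± 1.06 to 1.36 ± 0.418 CPM (SD, n = 3), or 7.21-fold (log2 fold change −2.85, SE 0.16, edgeR FDR = 7.16e-12). KRT15, a type I keratin of basal cells, fell from 15.5 ± 0.441 to 7.28 ± 0.986 CPM (log2 fold change −1.09, edgeR FDR = 1.84e-09). The groups of these 3 genes did not overlap, as for 63.2% of all genes tested. KRT6A and KRT75 were the 2 of the list past a fold change of 2.5.

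The hair keratin genes KRT38 and KRT83 were higher in OV3/COX1KD cells, both from low levels. KRT38 went from 1.11 ± 0.258 to 2.51 ± 0.155 CPM (SD, n = 3; log2 fold change 1.18, edgeR FDR = 3.52e-05). KRT83 went from 2.17 ± 0.205 to 3.15 ± 0.0603 CPM (log2 fold change 0.54, edgeR FDR = 0.00422), a call that was lost without OV3/SCR replicate 1 (0.0236) or 2 (0.0130), without OV3/COX1KD replicate 1 (0.0142) or 3 (0.0111), with total count scaling (0.0120) and in DESeq2 (0.0343). KRT74, KRT82, KRT6B and KRT6C had log2 fold changes of 0.77, 0.66, −0.40 and −0.19 and edgeR FDR values of 0.0597, 0.0270, 0.114 and 0.671. KRT14, the partner of KRT5, had 3, 4 and 2 counts in OV3/SCR and 0, 2 and 0 in OV3/COX1KD, at which depth no difference was detectable.

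Keratin genes lie in a type II cluster with KRT18 on chromosome 12 and a type I cluster on chromosome 17. The keratin genes of the count table, without pseudogenes, reached from 52562780 to 53346690 and from 38974369 to 39781094 in GRCh37. These bounds depend on which genes the table holds and may not be those of the whole clusters. The cluster on chromosome 12 held 13 tested keratin genes, with KRT75, the largest fall, and KRT8 and KRT18, both higher, in the same cluster. Within these bounds and 1 Mb on either side, the tested genes other than keratins had median log2 fold changes of −0.04 (41 genes, 10 higher and 12 lower) on chromosome 12 and −0.01 (53 genes, 12 higher and 15 lower) on chromosome 17. The interquartile ranges of these genes lay between −0.47 and 0.15 and between −0.24 and 0.25. Of all genes tested, 25.8% were called as higher and 22.1% as lower. KRT18, KRT8, KRT19, KRT80, KRT23 and KRT81 were outside the interquartile range of their cluster, which by definition leaves out many of the neighbours as well. From lowest to highest, the neighbours ran from −1.32 (SLC4A8) to 0.62 (ATP5G2) on chromosome 12. On chromosome 17 they ran from −3.53 (PTRF) to 0.60 (ORMDL3).

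**Figure D4:**
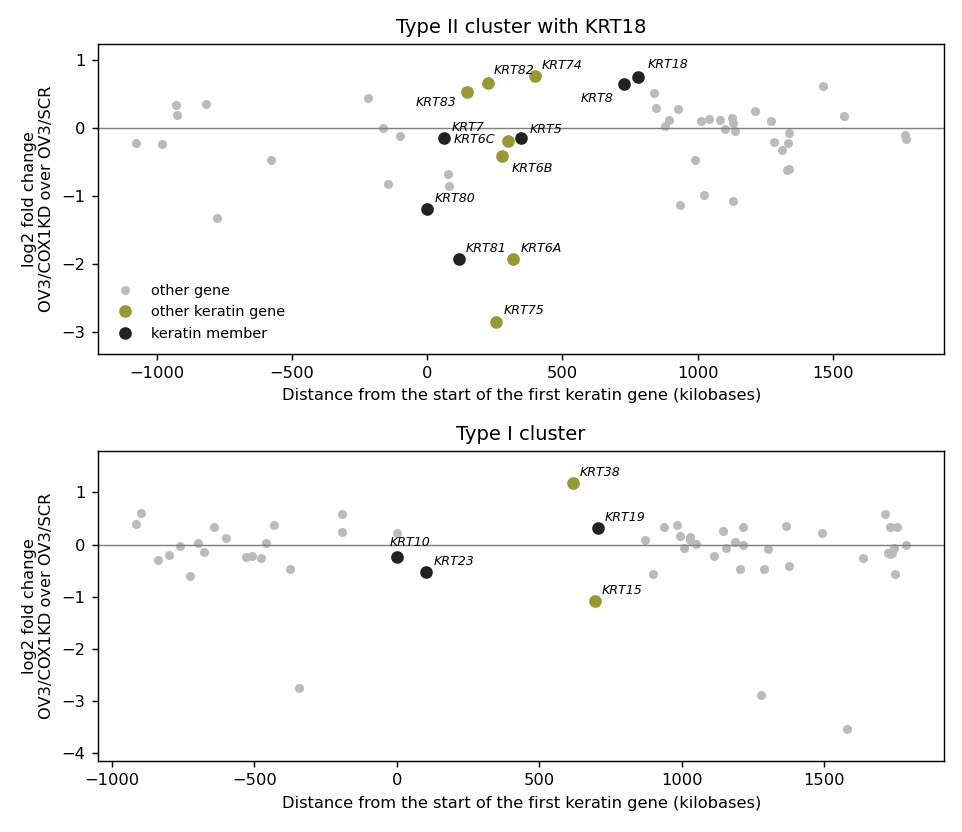
log2 fold change of OV3/COX1KD over OV3/SCR against distance in kilobases, for the type II cluster with KRT18 (top) and the type I cluster (bottom). Distance runs from the start of the cluster's first keratin gene in the count table to each gene's start. Black points are members, olive points other keratin genes and grey points the other genes tested. Keratin genes with rises and falls lie side by side, KRT8 and KRT18 next to each other at the far end of the type II cluster.

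Genes for proteins that tie keratin filaments to desmosomes or organise them were mixed in direction at the RNA level. Of 15 genes listed, 14 were tested, 7 were higher, 4 were lower and 3 were not called, with a median log2 fold change of 0.12. The share called was 47.9% over all genes tested and 67.1% among those with a mean log2 CPM of 5 or more. DSP, the desmoplakin that anchors keratin at desmosomes, was at 468, 501 and 492 CPM in OV3/SCR and at 692, 576 and 677 CPM in OV3/COX1KD (log2 fold change 0.41, SE 0.049, edgeR FDR = 4.45e-07). JUP, the plakoglobin that binds it, went from 89.4 ± 2.31 to 113 ± 2.73 CPM (SD, n = 3; log2 fold change 0.34, edgeR FDR = 6.17e-08). The largest rises were those of the desmosomal PKP2 (47.0 to 87.2 CPM, log2 fold change 0.89, edgeR FDR = 3.68e-12), of SFN, which codes for 14-3-3 sigma (0.70, edgeR FDR = 3.54e-06), and of the keratin-binding epiplakin EPPK1 (0.69, edgeR FDR = 5.30e-06).

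DST, the dystonin that links keratin to hemidesmosomes, fell from 88.6 ± 5.28 to 60.1 ± 3.02 CPM (SD, n = 3; log2 fold change −0.56, edgeR FDR = 2.87e-09). The DST count is of the whole gene, and its transcripts were not told apart. PNN, whose product pinin was described at desmosomes and in the nucleus, and TCHP, which codes for the keratin-binding trichoplein, fell by 0.50 and 0.33 on the log2 scale (edgeR FDR = 1.41e-06 and 8.26e-05). OV3/COX1KD replicate 2 lay nearest to the controls for DSP (576 CPM), EPPK1 (39.0 CPM, against 57.9 and 55.9 CPM in the other knockdown libraries) and PNN (435 CPM, against 331 and 345 CPM). Without it, 9 genes of this list were higher and 3 were lower.

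Among the other intermediate filament genes, 9 were tested, 2 were higher, 3 were lower and 4 were not called, with a median log2 fold change of −0.38. This stands beside 47.9% called over all genes tested. VIM, the vimentin of mesenchymal cells, was low in both conditions, at 1.09, 1.23 and 0.774 CPM in OV3/SCR and 0.715, 0.838 and 0.826 CPM in OV3/COX1KD, and the groups overlapped (log2 fold change −0.38, edgeR FDR = 0.220). LMNA, which codes for the nuclear lamins A and C, fell from a mean of 980 to 717 CPM (log2 fold change −0.45, SE 0.028, edgeR FDR = 4.42e-11), while LMNB1, the gene of lamin B1, rose by 0.24 on the log2 scale (edgeR FDR = 1.26e-06). The neuronal INA and the muscle synemin gene SYNM fell by 1.08 and 0.98 (edgeR FDR = 1.83e-09 and 3.02e-09). The neuronal PRPH was higher at 1.56 CPM against 0.841 CPM (log2 fold change 0.89, edgeR FDR = 0.00382), a call lost without OV3/SCR replicate 1 (0.0123) or 2 (0.0287), without OV3/COX1KD replicate 3 (0.0118) and in DESeq2 (0.0238).

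Of 12 genes of the cornified envelope, the hard shell of the uppermost epidermis, 7 matched the table and 4 were tested. Of these 4, 2 were higher and 2 lower, with a median log2 fold change of −0.03, while 47.9% of all genes tested were called. FLG, whose product filaggrin bundles keratin filaments, was at 99.9, 106 and 109 CPM in OV3/SCR and at 10.5, 8.42 and 8.45 CPM in OV3/COX1KD. This 11.5-fold fall (log2 fold change −3.52, SE 0.063, edgeR FDR = 8.35e-19) was larger than that of any keratin gene tested. TGM1, a transglutaminase that cross-links the envelope, fell by 0.45 on the log2 scale (edgeR FDR = 0.000918). CNFN rose from 0.752 to 1.58 CPM (edgeR FDR = 0.000566) and CSTA, a protease inhibitor, from 6.30 to 8.24 CPM (edgeR FDR = 0.00279), the latter call being lost without OV3/SCR replicate 2 (0.0238), with total count scaling (0.0128) and in DESeq2 (0.0141).

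Transcription factors of epithelia were also mixed, with 10 of 12 tested, 4 higher, 4 lower and 2 not called, and a median log2 fold change of −0.05. For all genes tested, the share called was 47.9%. GRHL3, a grainyhead-like factor of the epidermal barrier, was at 1.65, 1.65 and 1.90 CPM in OV3/SCR and at 8.66, 9.30 and 9.87 CPM in OV3/COX1KD (log2 fold change 2.42, SE 0.12, edgeR FDR = 1.97e-12). The ETS factors EHF and ELF3 rose by 0.70 and 0.21 (edgeR FDR = 2.55e-09 and 0.000143). KLF5, KLF4 and TFAP2C fell by 0.43, 0.39 and 0.28 on the log2 scale (edgeR FDR = 5.55e-09, 4.97e-05 and 0.000749), the last with an edgeR FDR of 0.0117 without OV3/SCR replicate 3. TP63, the factor of basal epithelial cells, had 11, 9 and 9 counts in OV3/SCR and 5, 3 and 3 in OV3/COX1KD and did not pass the filter.

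**Figure D5:**
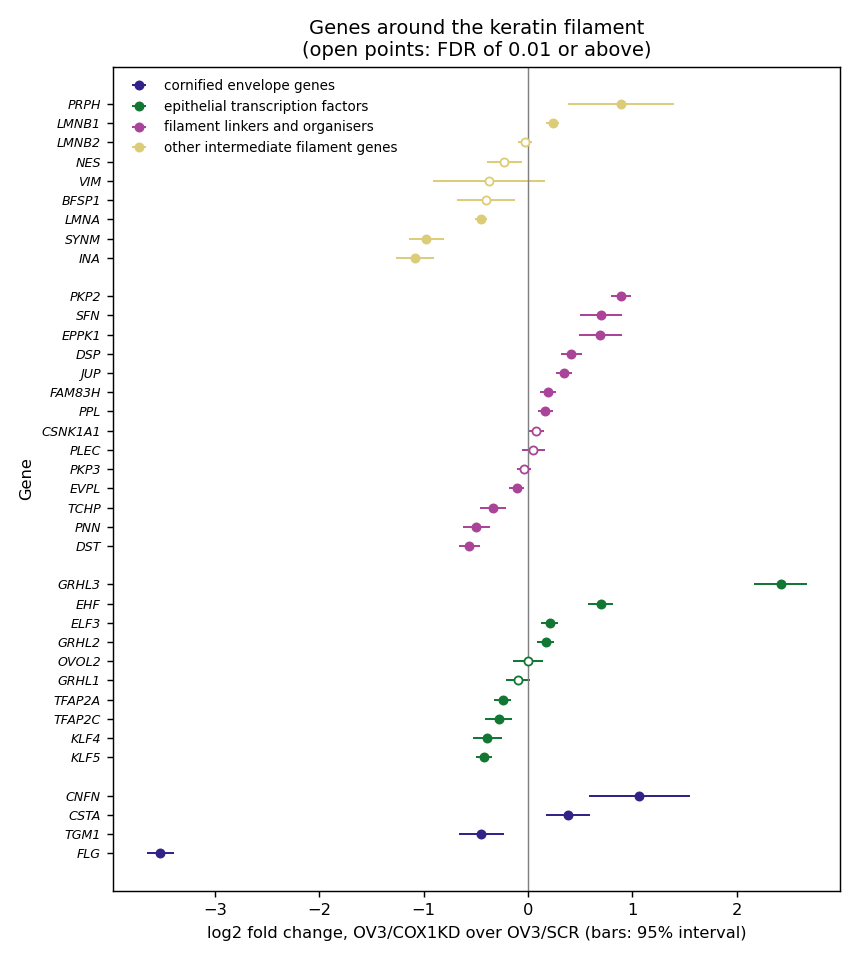
log2 fold change of OV3/COX1KD over OV3/SCR for the tested genes of 4 lists around the keratin filament, with 95% intervals. Open points have an FDR of 0.01 or above. Every list has genes on both sides of 0, and FLG at −3.52 and GRHL3 at 2.42 lie farthest out.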

How the data were processed

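RNA was extracted with an RNeasy kit and libraries were made with the Illumina TruSeq RNA kit. The submitters' processing notes name TopHat2 2.0, HTSeq and the build hg19 (GRCh37), and the authors deposited raw counts per gene, without normalization, for 34811 genes in 6 libraries. The annotation, the strand setting and the treatment of reads with several matches are not given in the sources used here. Groups and replicate numbers came from the labels, and clone numbers from the study's text.

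Analysis of the counts used edgeR 4.0.16 under R 4.3.3. After TMM scaling and filterByExpr, condition was fitted alone (glmQLFit, glmQLFTest), and p-values of 17309 genes were adjusted by Benjamini-Hochberg. The common dispersion of 0.00103 equals a biological coefficient of variation of 3.21%. The script was tested on simulated data. The threshold was an FDR below 0.01, and large changes also had to exceed a fold change of 2.5, as in the study. Libraries of a condition differed by more than sampling noise (chi-square per degree of freedom 1.74 to 5.74), so none was a copy of another.

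Coordinates, exon overlaps and lengths came from GENCODE 44 lifted to GRCh37, which had an entry for 33556 of the genes, and promoter sequences from RefSeq (GRCh38.p14). Shared words are 50-base stretches found, on either strand, in transcripts of other genes. The members and the gene lists were chosen with earlier results of these data known. Named genes are the members, PTGS1, VIM, DSP, JUP, TP63 and the other keratin genes that passed the filter. In each list, up to 3 largest rises and falls past the threshold are named too. MUC16, PAX8, COL1A1 and LUM among the cell type markers and SLC4A8, ATP5G2, PTRF and ORMDL3 among the cluster neighbours are named for their values. KRT4, KRT13, KRT14, KRT16, KRT20, KRT78, KRT84 and the pseudogenes are named for their counts, which had been seen. The alternatives were scaling by total counts or by RLE, DESeq2 1.42.0, no abundance filter or one of 10 counts per library, the replicate number as a block, offsets for GC content and length, and leaving out each library in turn.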

Additional observations from a re-analysis of the deposited data

How the results depend on the processing

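In every alternative run, the same 8 keratin members passed the threshold in the same direction and 1 of them, KRT81, was past a fold change of 2.5. Over these fits the log2 fold change lay between 0.57 and 0.68 for KRT8, between 0.68 and 0.80 for KRT18, between 0.24 and 0.35 for KRT19, between −0.22 and −0.12 for KRT7, between −1.27 and −1.17 for KRT80 and between −2.06 and −1.79 for KRT81. KRT5 passed in none. Total count scaling raised the calls among other intermediate filament genes from 5 to 8 (2 higher, 6 lower), moved the median of all genes tested to −0.09 and turned the balance of all calls, from 4473 higher and 3820 lower to 3466 higher and 4978 lower. Of 557 alternative values for 43 named genes, 543 kept their direction and side of the threshold, 14 kept the direction but lost the call (those of KRT83, PRPH, CSTA and TFAP2C), and 0 reversed. With the replicate block, 8233 genes in all passed against 8293 without it, and 8 keratin members, 5 other keratin genes and 10 filament linkers and organisers, against 11 without it. Libraries with the same number correlated in their deviations by 0.0035, 0.0412 and 0.00638 only, so the numbers were not taken as pairs. Leaving out each library in turn gave between 7124 and 8989 calls over all genes and a difference in the log2 ratio of type II to type I levels between −0.18 and −0.16. A gene at the floor of 3 counts gives no fold change, so scarce keratins are limited by depth, and 1 clone per condition limits all results.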

Other observations

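Some keratin genes were too scarce for the filter but had counts in most libraries. KRT78, a type II keratin, had 8, 17 and 15 counts in OV3/SCR and 4, 5 and 3 in OV3/COX1KD, a ratio of 3.26 with an exact 95% counting interval from 1.68 to 6.83, with an unfiltered edgeR FDR of 0.00224 and a DESeq2 FDR of 0.0349. KRT16, the type I partner of KRT6A, had 9, 6 and 3 counts in OV3/SCR and 1, 2 and 0 in OV3/COX1KD, with an unfiltered edgeR FDR of 0.0158. Not all scarce keratins fell this far. Summed counts in OV3/SCR and OV3/COX1KD were 44 and 21 for KRT4, 35 and 19 for KRT13, 11 and 10 for KRT20 and 13 and 19 for KRT84. Their unfiltered edgeR FDR values were 0.0447, 0.175, 0.974 and 0.542.

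The table also holds 72 keratin pseudogenes, and 15 of them were tested, 1 higher (KRT8P45, log2 fold change 0.86, edgeR FDR = 0.00617) and 1 lower (KRT8P22, −1.16, edgeR FDR = 0.00947). The share called over all genes tested was 47.9%. Counts of the pseudogenes were small beside those of the parent genes. The 33 pseudogenes of KRT8 summed to 492 to 573 counts in OV3/SCR and 501 to 606 in OV3/COX1KD, which is 1.37% and 0.915% of the KRT8 counts, and those of KRT18 to 0.770% and 0.630% of the KRT18 counts. Of the 50-base words of the longest transcript, 22.1% for KRT8, 34.4% for KRT18 and 1.79% for KRT19 also occur in other genes. These shares are not of pseudogenes alone. For KRT18 the gene with the most shared words was KRT8 (16.0% of the KRT18 words), which overlaps it on the opposite strand.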
